A study of Mus musculus with 6 samples.

Results

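The Sox9-side domain of the Sox9/Kcnj locus was described here from every pair of 10 kb bins that lay inside chr11:111440001-113030000 in the mouse assembly mm9 and were 2 or more bins apart. That gave 12403 bin pairs over 159 bins (1590 kb), of 171405 pairs at the same minimum distance in the whole map of 587 bins. The ends of the domain had been chosen by the insulation score of WT, the log2 of the mean count per pair in a diamond of 500 kb over each bin, relative to all bins. At the centromeric end the score was -1.03 in the last bin outside (111430001) and -0.93 in the first bin inside, past the boundary bin at 111380001 with -1.46. At the telomeric end it was -0.89 in the last bin inside and -0.91 in the next bin, where the mean count per pair with the domain changed from 108 to 56.6 contacts. At the centromeric end this mean was higher outside, with 100 in the last bin outside and 71.8 in the first bin inside. These values chose the region and are given as a description. So is a shallow WT minimum of the same score at 112650001 (-0.08, with a prominence of 0.31), which divides the domain into a gene desert of 1210 kb (111440001 to 112650000, 121 bins) and the stretch past it, 380 kb in 38 bins (112650001 to 113030000).

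The data were capture Hi-C maps from limb buds of mouse embryos at E12.5. In this assay chromatin is fixed, DNA ends that lie near each other are ligated, probes pull out the fragments of the locus, and a ligated pair counts as a contact between the bins that hold its ends. The 6 genotypes had 1 library each, with WT as the control. The deltaBor mutant lacked the boundary between this domain and its neighbour, the Kcnj-side domain, and in its map the bin 111390001 to 111400000 held 0 contacts against 24790 in WT. Dup-S, Dup-L and Dup-C carried duplications, seen in the maps as gains of contacts over 111750001 to 112170000 (420 kb), 110960001 to 112520000 (1560 kb) and 110770001 to 112520000 (1750 kb). The first of these lay within the domain, and the other 2 spanned the boundary and 1080 kb of the desert. Dup-LdeltaBor carried the gain of Dup-L without the boundary. The sources used here give neither the zygosity of the mutants nor how many embryos were pooled.

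Topologically associating domains are stretches of chromosome whose parts meet each other more often than they meet the neighbouring stretch, and they appear as squares in a contact map. Inside a domain, contacts fall with distance, weaker limits can divide it into sub-domains, and pairs of anchors often meet at a focal contact that stands out from its surroundings. Sox9, which encodes a transcription factor needed for cartilage and gonad development, is known for a large gene desert on its centromeric side that holds distant enhancers. The potassium channel genes Kcnj2 and Kcnj16 lie across the boundary. Positions of genes in mm9 were not used, so regions are given by coordinates and no bin was assigned to a gene.

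The whole maps held 4144258 (Dup-C) to 8965219 (Dup-LdeltaBor) contacts, and the domain took 28.4% (deltaBor) to 37% (Dup-LdeltaBor) of the contacts 2 or more bins apart. The domain held 1414157 contacts in WT, 1167226 in deltaBor, 2020193 in Dup-L, 2483762 in Dup-LdeltaBor, 929064 in Dup-C and 1175166 in Dup-S. No pair of the domain was at 0 in any library. The median pair held 75 contacts in WT, from 47 in Dup-C to 130 in Dup-LdeltaBor, where counting error alone is 11.5%, 14.6% and 8.77%. With 1 library per genotype the genotypes could not be tested against each other. Intervals at 95% are exact Clopper-Pearson intervals for counting error alone. They leave out the error of the scaling and the spread between embryos, and would be too narrow if duplicate reads remained.

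The domain kept most of its contacts to itself in all 6 libraries. Contacts were summed bin by bin, so a contact inside the domain counted once for each of its ends and an outgoing contact only once. The shares inside are therefore higher than with each contact counted once. Of these sums, 79.4% stayed inside the domain in WT, 77.4% in deltaBor, 77.9% in Dup-L, 76.9% in Dup-LdeltaBor, 76.5% in Dup-C and 80.9% in Dup-S. The share of the same sums that went to the Kcnj-side domain (110200001 to 111380000) was 7.63% in WT and 7.18% in Dup-S. It was higher in the other genotypes, at 11.4% in deltaBor, 14.6% in Dup-LdeltaBor, 13.1% in Dup-C and 10.7% in Dup-L. The order was similar in the KR maps, in which the authors balanced the bins to equal sums by the Knight-Ruiz method, with 8.73% in WT and 12.8% in deltaBor. Balancing removes the greater number of contacts of a duplicated bin, so raw and KR values are given side by side for the duplications.

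The strongest limit inside the domain lay at 112650001, between the desert and the stretch past it. Diamonds of 200 kb, which here held pairs of the domain only, gave 3 minima in WT with a prominence of at least 0.2 log2. They lay at 112030001 (score -0.12, prominence 0.30), at 112390001 (-0.00, 0.22) and at 112650001 (-0.99, 1.21). Across 112650001 the diamond held a mean of 70.3 contacts per pair, 50.5% of the mean over the domain's bins. A smaller diamond of 100 kb gave 45.3% there and a larger one of 300 kb gave 60.1%, so the depletion was greatest near the limit and faded with distance from it.

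This strongest inner limit was present in every library, at the same bin in all 6 raw maps with the 200 kb diamond. The raw score there was -0.99 in WT and -0.96 in deltaBor, which lacks the outer boundary at the other end of the desert. It was -1.83 in Dup-LdeltaBor, -1.70 in Dup-C, -1.5 in Dup-L and -1.33 in Dup-S. The duplications have higher counts in the desert, and these are part of the mean that the raw score is relative to. With KR values the score was -0.99 in WT, -0.96 in deltaBor and -0.98 in Dup-S, and less deep in Dup-C (-0.90), Dup-L (-0.84) and Dup-LdeltaBor (-0.72). The position moved by 1 bin with KR values, to 112640001 in all 6 maps.

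The limit at 112030001 was weaker and lay near the middle of the desert. It was a minimum in 5 of the 6 libraries with the 200 kb diamond, with raw prominences of 0.30 in WT and deltaBor, 0.28 in Dup-C, 0.22 in Dup-L and 0.21 in Dup-LdeltaBor. In the KR maps of those 5 it was found within 1 bin, with prominences of 0.25 to 0.37. In Dup-S, where it lies inside the duplicated 420 kb, no minimum was found within 30 kb of it. The Dup-S raw score at that bin was 0.45 against -0.12 in WT, and the KR map of Dup-S had minima at 111750001 and 112090001 in its place, the first of them the first bin of the duplication.

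The limit at 112390001 depended on the values used. With the 200 kb diamond it was found in the raw maps of WT, deltaBor and Dup-S, with prominences of 0.22, 0.24 and 0.22. With the 100 kb diamond the raw map of Dup-C had it too (0.22). It was in none of the 6 KR maps with either diamond. With the 100 kb diamond, WT gave 5 raw minima (111720001, 112030001, 112250001, 112390001 and 112630001) and 3 with KR values (111820001, 112050001 and 112640001).

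**Figure D1:**
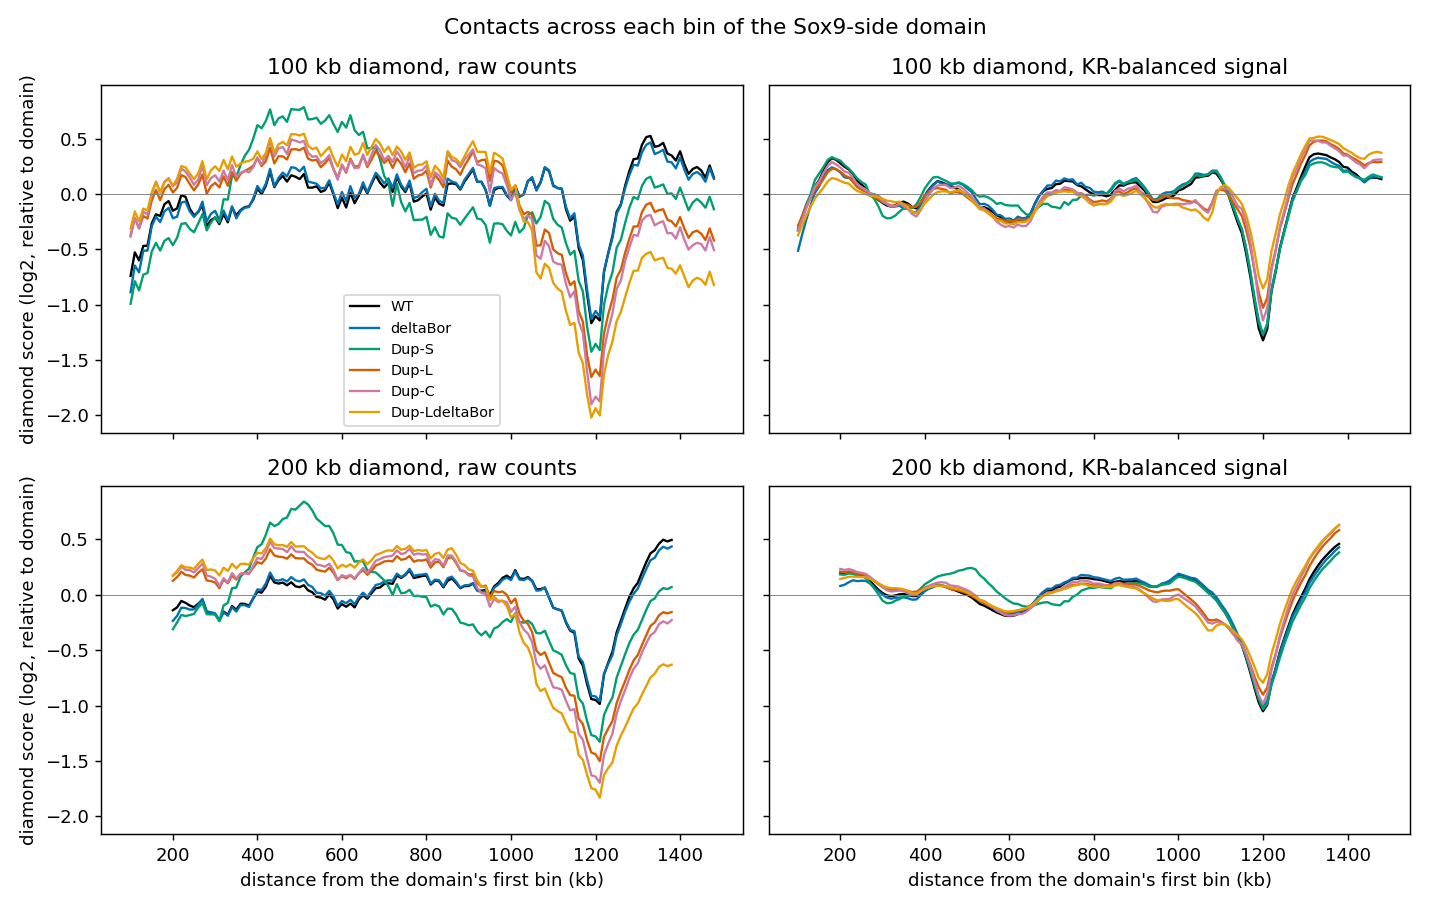
Diamond scores along the Sox9-side domain, in log2 of the mean value per pair across each bin relative to the mean over the domain's bins, against the distance from the domain's first bin in kb. Rows show diamonds of 100 and 200 kb, columns raw counts and KR-balanced signal, and each line is 1 library. The deepest point, 1210 kb from the domain's first bin with raw counts and 200 kb diamonds, is shared by all 6 lines, while the Dup-S line departs from the others over its duplicated 420 kb.

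The desert and the stretch past it differed in how densely their bins met. In WT a pair within the desert held a mean of 132 contacts, a pair within the stretch past it 298, and a pair that joined them 58.8, at distances that differ between the 3 kinds. Pairs that joined the desert to the stretch made up 37.1% of the pairs and 19.1% of the contacts (95% interval 19.1 to 19.2) in WT. This share was 19% in deltaBor, and lower in the duplications, at 12.7% in Dup-LdeltaBor, 13.8% in Dup-C, 15.3% in Dup-L and 17.9% in Dup-S. The lower raw shares in the duplications, whose gained segments lie in the desert, were closer to WT with KR values: 18.8% in WT and deltaBor, 18.4% in Dup-L, 18% in Dup-LdeltaBor, 17.3% in Dup-C and 19% in Dup-S.

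Set against the mean of the domain at the same distance, the stretch past the desert was the densest piece. In WT its pairs held 1.36 times the expected contacts (1.28 with KR values), and the mean of the piece next to it, 112390001 to 112650000, with the stretch was 0.683 (0.675). In WT the depletion across the limit weakened with distance: the pieces 112030001 to 112390000 and 111440001 to 112030000 met the stretch at 0.855 and 0.968 of the expected level. Within the desert, the pieces on the 2 sides of 112390001 met each other at 1.26 times the expected level (1.21 with KR values), so these pieces were not depleted for each other.

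**Figure D2:**
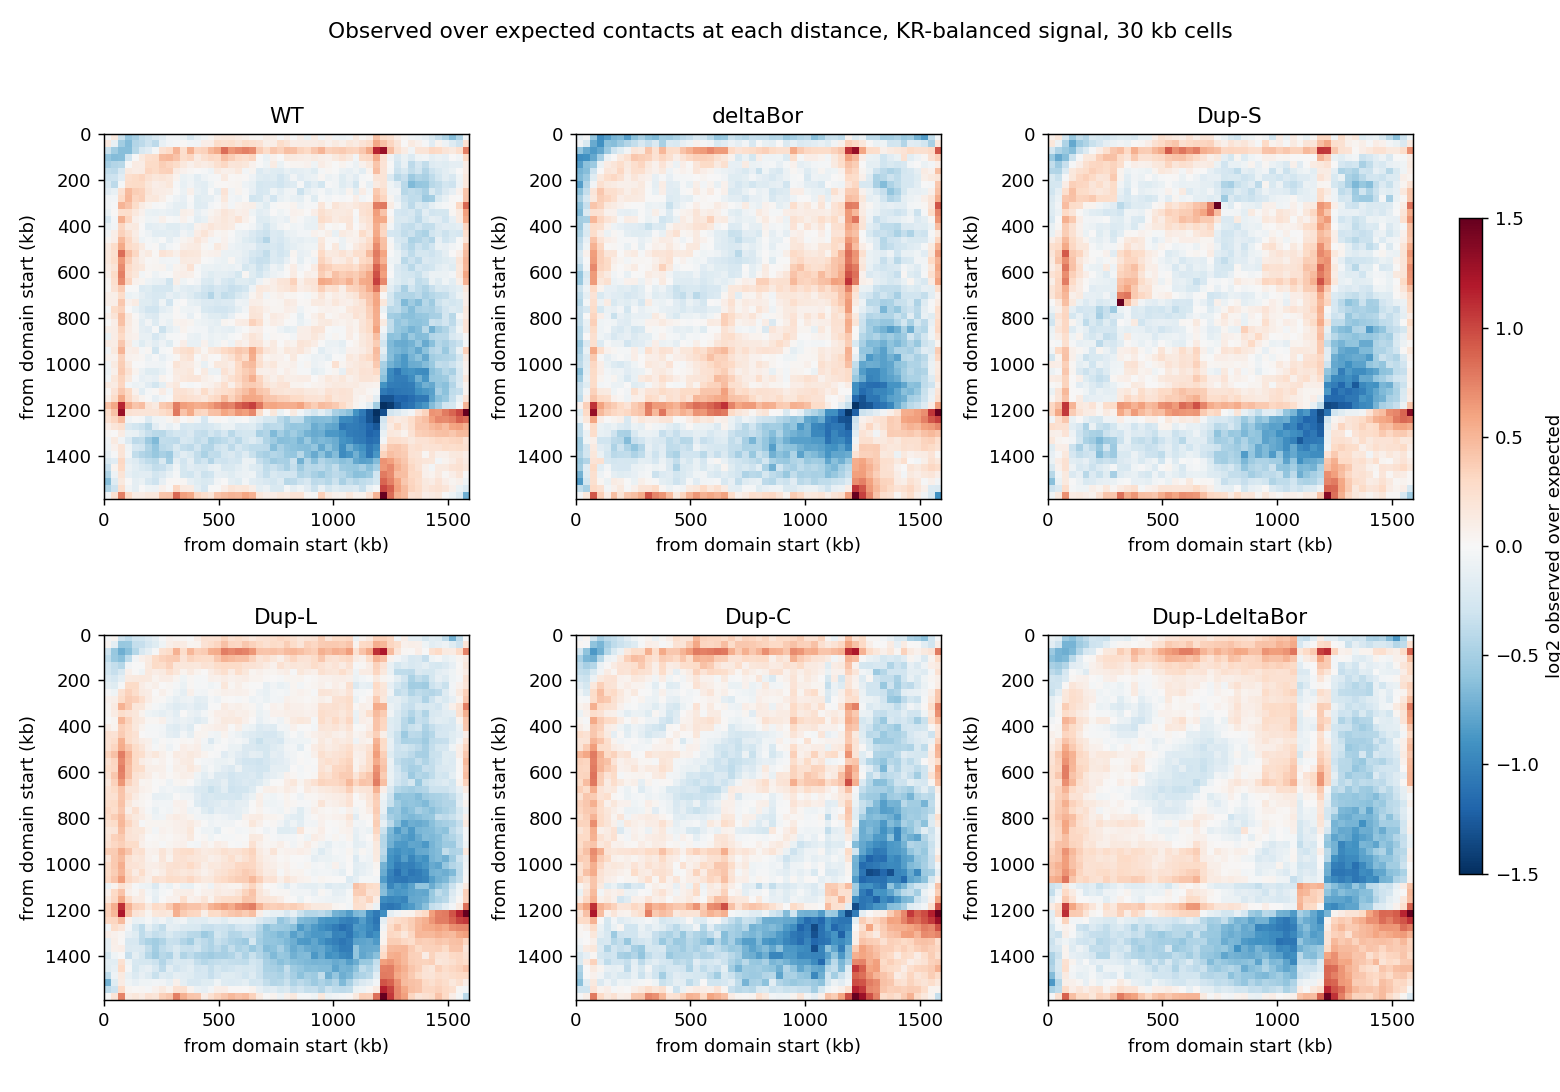
Observed over expected contacts within the Sox9-side domain for the 6 libraries, KR-balanced signal, on a log2 colour scale in cells of 30 kb, with both axes in kb from the domain's first bin. The expected value is the mean of the domain at each distance. All 6 maps show the depleted rectangle between the desert and the stretch past it (0.675 in WT for the nearest piece), and lines of high contact at the ends of the desert. Dup-S alone shows a dark cell at the corner of its duplicated segment.

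Contacts fell with distance more steeply below 200 kb than above it. In WT the mean count per pair was 788 contacts at 20 kb, 193 at 100 kb, 98.7 at 300 kb and 55 at 1000 kb. The slope of log10 contacts on log10 distance from 20 to 200 kb was -0.77, and from 200 to 1000 kb it was -0.50. At 1500 kb, where only 9 pairs remain and all of them join the 2 ends of the domain, the mean was higher again at 98.1 contacts. Distances share bins and end points, so the slopes are descriptions.

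From 200 to 1000 kb the raw slope was -0.50 in WT, -0.49 in deltaBor, -0.58 in both Dup-L and Dup-S, and -0.62 in both Dup-LdeltaBor and Dup-C. With KR values the 6 lay closer together, between -0.47 (deltaBor) and -0.53 (Dup-C). The neighbouring Kcnj-side domain fell less steeply over the same range, with -0.28 in WT (KR -0.20), and its slope from 20 to 200 kb, -0.79, was near that of the Sox9-side domain. In WT the stretch past the desert kept 20.9% of its 20 kb level at 300 kb, against 13.4% in the desert and 12.9% in the Kcnj-side domain. Only 8 pairs of the stretch lie at that distance, all between its ends, against 91 and 88 pairs in the other regions.

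**Figure D3:**
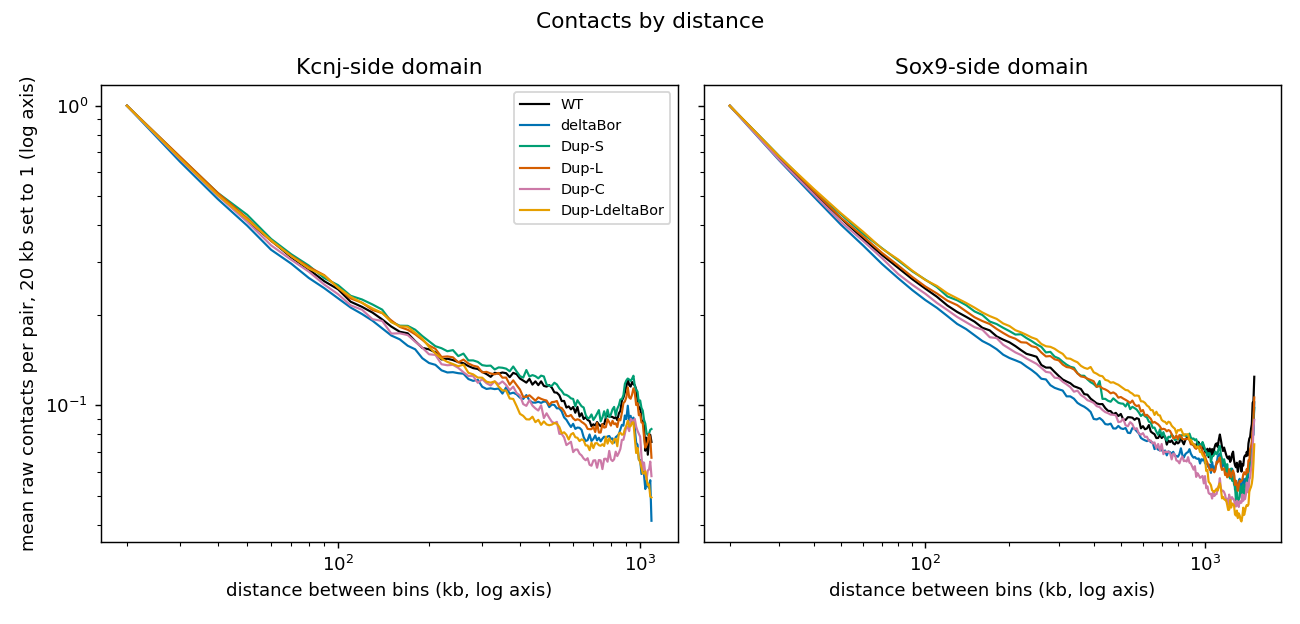
Mean raw contacts per pair against the distance between bins in kb, both on log axes, with the value at 20 kb set to 1, for the Kcnj-side domain and the Sox9-side domain. Each line is 1 library. The Sox9-side lines turn up at the longest distances, and the Kcnj-side lines are flatter beyond 200 kb (a slope of -0.28 in WT against -0.50).

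Focal contacts were sought among 10877 pairs of the domain, all 10 or more bins apart with a 3 by 3 bin square inside it. Surroundings that reached past an end of the domain were cut off there. The focal ratio is the mean observed over expected value of a square of 3 by 3 bins, divided by the highest of the means of a ring 4 to 6 bins away and of its row and column strips. A focal contact had a ratio at least 25% above its surroundings, was the highest within 5 bins, and had at least 100 contacts in its square. In WT 24 such contacts were found, with ratios from 1.26 to 1.83. Of all tested pairs, 1.02% were past the ratio in WT, 1.21% in deltaBor, 1.32% in Dup-L, 1.48% in Dup-LdeltaBor, 1.63% in Dup-C and 1.42% in Dup-S. Since WT chose these 24, their WT ratios are high by choice, and the other libraries are the ones that bear on them.

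How many of the 24 were found in another library differed between libraries and with the tolerance in position. At the same pair, 12 of the 24 were past the ratio in deltaBor, 11 in Dup-L, and 7 each in Dup-LdeltaBor, Dup-C and Dup-S, and the median ratio of the 24 was 1.19 to 1.24 in the 4 duplications against 0.865 to 0.882 over all tested pairs. Where the highest ratio within 1 bin of the WT position was taken, 17 were past it in deltaBor, 14 each in Dup-L and Dup-C, and 10 each in Dup-LdeltaBor and Dup-S. The highest of several squares passes more easily, and the share of all tested pairs under this rule was not computed. At the same pair, 4 of the 24 were past it in all 6 libraries, and only 5 of the 24 passed in WT with KR values.

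The strongest focal contact joined the 2 ends of the desert. It lay between 111510001 and 112630001, 1120 kb apart, with 1627 contacts in its square in WT, 1303 in deltaBor, 1737 in Dup-L, 1641 in Dup-LdeltaBor, 755 in Dup-C and 985 in Dup-S. The focal ratio was 1.83 in WT (1.74 to 1.92), 1.81 in deltaBor, 1.74 in Dup-LdeltaBor, 1.76 in Dup-S, and 1.62 in both Dup-L and Dup-C. KR values gave 1.91 to 2.05 in the 6 libraries. All 6 were past the ratio with both kinds of values, and in each library the square held at least 2.48 times the contacts expected at that distance.

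With raw counts scaled outside the domain, this contact was within counting error of its control in both libraries without the boundary. The square held 1.01 times the WT contacts in deltaBor (0.936 to 1.08; KR 0.954) and 1.00 times the Dup-L contacts in Dup-LdeltaBor (0.936 to 1.07; KR 0.854). Library totals would put both folds lower, since the scaling factors used were 1.05 and 1.19 times those of the library totals. This contact was lower in Dup-S (0.887, 0.819 to 0.961), where the duplicated 420 kb lies between its ends. It was higher in Dup-L (1.14, 1.06 to 1.22) and Dup-C (1.16, 1.07 to 1.27), where 1 of its 2 ends is duplicated, and lower than WT there with KR values (0.84 and 0.824).

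The contact that closed the stretch past the desert lay between 112640001 and 113010001, 370 kb apart. Its surroundings were cut off on the telomeric side, since 113010001 lies next to the domain's last bin. Its square held 1746 contacts in WT, 1408 in deltaBor, 1722 in Dup-L, 1492 in Dup-LdeltaBor, 753 in Dup-C and 1138 in Dup-S. The ratio was 1.32 in WT, 1.5 in deltaBor, 1.34 in Dup-L, 1.38 in Dup-LdeltaBor, 1.49 in Dup-C and 1.39 in Dup-S, and 1.69 to 1.87 with KR values. Both this contact and the one across the desert therefore ended within 112630001 to 112650000, next to the strongest inner limit, and these 2 were the ones past the ratio in all 6 libraries with both kinds of values.

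A pair of further contacts met at 111750001, inside the desert. The first joined it to 112630001, with 1221 contacts in its WT square and ratios of 1.66 in WT, 1.57 in deltaBor, 1.56 in Dup-L, 1.29 in Dup-LdeltaBor, 1.6 in Dup-C and 1.55 in Dup-S. The other joined 111520001 to 111750001, with 1678 contacts in WT and ratios of 1.54, 1.42, 1.48, 1.32, 1.41 and 1.44 in the same order. Both were past the ratio in all 6 raw maps, but with KR values the second was at 1.19 or less in every library. The shared bin 111750001 ranked 7 of 159 by its mean raw level over expected in WT (1.43) and 33 with KR values (1.07). It is also the first bin of the Dup-S duplication.

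The other 4 of the 8 highest WT ratios passed in at most 1 other library at the same pair. The contacts 111610001 with 112610001 (1.38 in WT), 111490001 with 111920001 (1.34), 112000001 with 112990001 (1.32) and 111530001 with 112820001 (1.32) were below the threshold in all 4 duplications, and in deltaBor only the first passed, with 1.29. None of the 4 passed with KR values in WT, where they lay between 1.00 and 1.12.

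**Figure D4:**
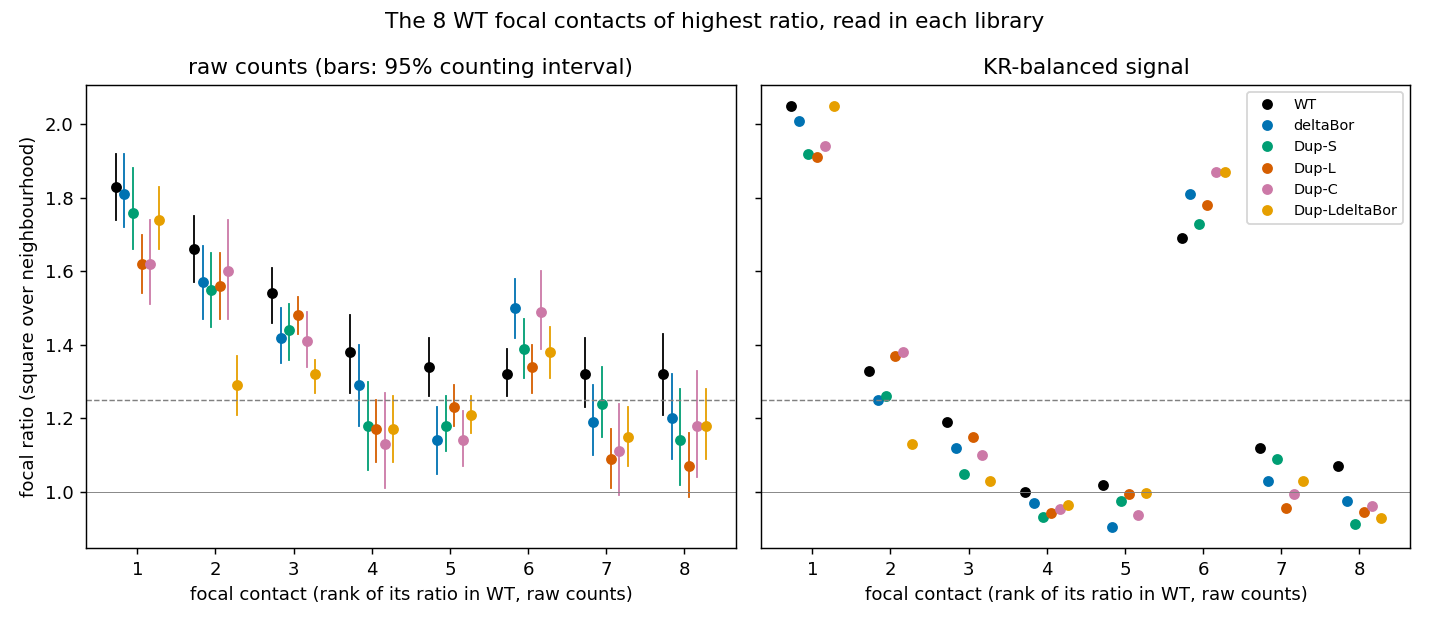
Focal ratio, the level of a 3 by 3 bin square over its surroundings (no unit), of the 8 WT focal contacts of highest raw ratio, numbered by that rank, in each of the 6 libraries. The left panel has raw counts with 95% counting intervals, the right panel KR-balanced signal, and the dashed line marks 25% above the surroundings. Contacts 1 (1.62 to 1.83 with raw counts) and 6 (1.32 to 1.5) are above the line for every library in both panels, and 4, 5, 7 and 8 drop below it outside WT, except 4 in deltaBor.

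The ends of the 5 WT contacts that also passed with KR values gave 5 anchors, at 111510001, 111750001, 112390001, 112630001 to 112650000 and 113010001. For pairs of anchors the highest ratio at or next to the anchor bins was taken. The highest of several squares passes more easily, and the share of all tested pairs under this rule was not computed. The pair 111510001 with 113010001, which spans nearly the whole domain, was not among the 24. Its highest raw ratio was 1.19 in WT and 1.14 to 1.28 in the other libraries. With KR values it was 1.53 in WT and 1.47 to 1.59 in the others. At its distance of 1500 kb only 9 pairs set the expected level, and its surroundings were cut off on the telomeric side. Among the 3 anchors 111510001, 112630001 to 112650000 and 113010001, this highest KR ratio was at least 1.47 for each pair in every library. For pairs with 112390001 it stayed at or below 1.29.

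The bin 112640001 had a high level with the whole domain and not only at these squares. Its mean observed over expected value with bins 10 or more away was 1.59 with KR values in WT, rank 1 of 159, and rank 1 in deltaBor (1.68), Dup-C (1.56), Dup-S (1.55) and Dup-L (1.46) and rank 3 in Dup-LdeltaBor (1.43). The next bin on its centromeric side, 112630001, ranked 2 in WT (1.47), and 111510001 ranked 3 (1.45). In the raw WT map 112640001 was at 1.04 (rank 70), 112630001 at 1.76 (rank 2) and 111510001 at 1.40 (rank 9), so the rank of 112640001 rests on the balancing. These ranks come from the same maps as the focal contacts.

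The Kcnj-side domain, searched in the same way, held 33 focal contacts in WT among 5670 tested pairs, of which 4.83% were past the ratio, against 1.02% in the Sox9-side domain. With KR values these shares were 1.22% and 0.405%. The 200 kb diamond gave 1 minimum there in WT, with raw and with KR values, against 3 and 2 in the Sox9-side domain. The highest WT ratio there was 1.76 with raw counts and 1.68 with KR values, below the highest of the Sox9-side domain.

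In deltaBor the domain as a whole was close to WT. Contacts were scaled on pairs outside the altered segment and on 1 side of it, without pairs of the domain, so that the domain did not set its own scale. The fold over WT was 1.04 (1.04 to 1.04) for the whole domain, 1.04 for the desert, 1.03 for the desert with the stretch past it and 1.03 within the stretch. KR values gave 1.01, 1.01, 1.01 and 1.03. Of the 136 blocks of 100 kb by 100 kb in the domain, 0 were at least 25% higher and 0 were at 0.8 or lower, against 14.4% and 3.27% of the 1711 blocks of the map. The blocks ranged from 0.85 to 1.13. The authors' deposited table of deltaBor minus WT differences had 30.2% of the domain's pairs above 0. Its scaling factors are not stated, and scaling to the library totals gave 0.992.

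Within that, the first bins of the domain lost contacts in deltaBor. The 3 lowest blocks all began with 111440001 to 111540000 and joined it to 112840001 to 112940000 (0.85, 0.815 to 0.886), 112440001 to 112540000 (0.86) and 112340001 to 112440000 (0.874). Bin by bin, the fold of contacts with bins of the domain 200 kb or more away was 0.714 (0.688 to 0.740) at 111440001, which lies 50 kb from the lost bin. It was 0.763, 0.771, 0.815, 0.805 and 0.849 in the next 5 bins, 0.934 at 111500001 and 1.00 at 111510001, the end of the strongest focal contact. From there to 111640000 the 13 bins lay between 0.995 and 1.05.

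Together the first 7 bins (70 kb) held 65578 such contacts in WT and 42596 in deltaBor, a fold of 0.818 (0.808 to 0.828), and the next 13 bins had 1.02 (1.01 to 1.03). With KR values the folds were 0.788 and 0.976. Both groups share 1 scaling factor, so the ratio of the 2 folds, 0.804 with raw counts and 0.807 with KR values, does not depend on it. The division after the seventh bin was chosen after the values were seen. The contacts of these 7 bins shifted toward the other side of the lost boundary: 14.2% went to the Kcnj-side domain in WT and 31.4% (31.2 to 31.7) in deltaBor, and the share inside the domain was 65.2% and 52.5%. In the next 13 bins the share to the Kcnj-side domain was 9.46% and 16.6%.

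The same bins were read in Dup-LdeltaBor over Dup-L, a second pair of libraries with and without the boundary. The first 7 bins had a raw fold of 1.29 and the next 13 one of 1.40, both within the duplicated segment. The ratio of the 2 folds was 0.923, and 0.904 with KR values (0.883 and 0.977). Their share to the Kcnj-side domain was 16.5% in Dup-L and 27.3% in Dup-LdeltaBor. The difference had the direction seen in deltaBor and was smaller. In the 3 duplications with the boundary, over WT, the KR folds of the first 7 bins were 0.993 in Dup-S, 1.01 in Dup-L and 0.963 in Dup-C, and those of the next 13 were 0.978, 1.00 and 0.949.

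**Figure D5:**
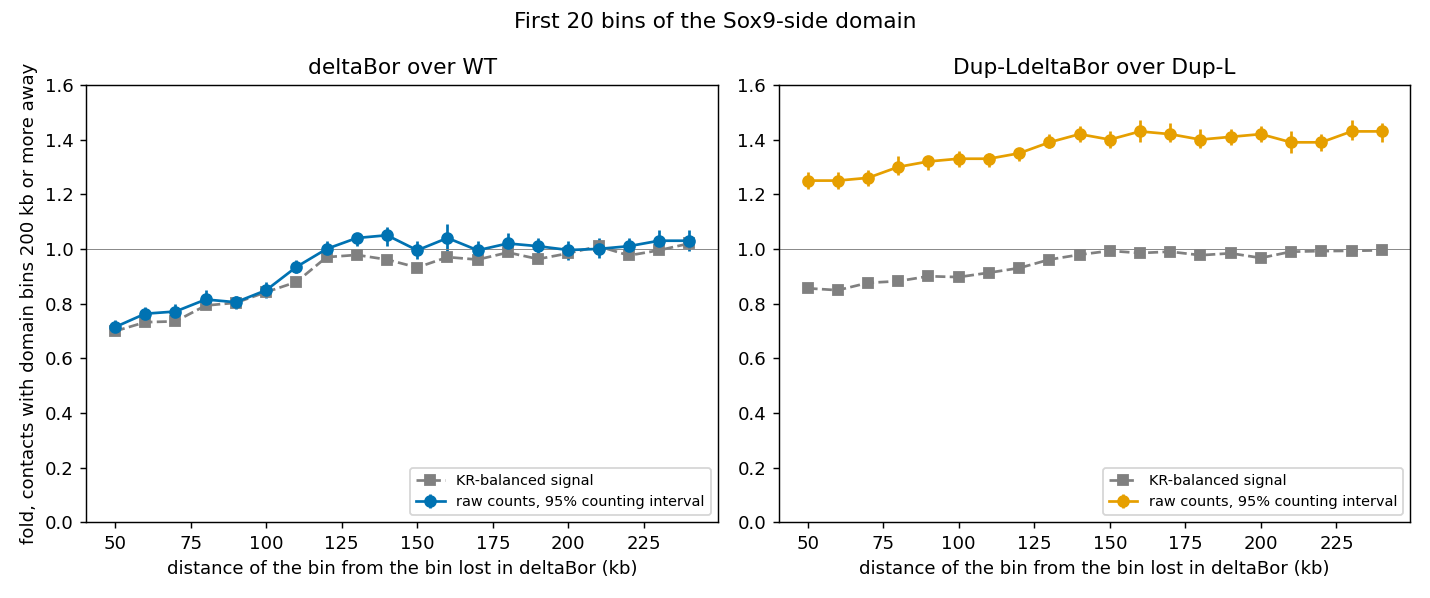
Fold of contacts of each of the first 20 bins of the Sox9-side domain with domain bins 200 kb or more away, deltaBor over WT and Dup-LdeltaBor over Dup-L, against the distance in kb from the bin lost in deltaBor. Circles are raw counts with 95% counting intervals and squares KR-balanced signal. In deltaBor the fold rises from 0.714 to 1.00 over the first 8 bins and then stays level, and in the other panel both lines are also lowest at the boundary end.

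Contacts of the desert's first 100 kb with the stretch past the desert were fewer without the boundary in both pairs of libraries. In deltaBor the strip 111440001 to 111540000 had a fold of 0.894 (0.877 to 0.911; KR 0.86) with the stretch past the desert. The other strips of the desert lay between 1.01 and 1.09 (KR 0.985 to 1.06). In Dup-LdeltaBor over Dup-L the same strip was at 0.879 (0.864 to 0.894; KR 0.727) and the others between 1.03 and 1.18. With KR values most of the others were below 1 too, from 0.88 in the strip next to it to 1.11 at the end of the desert. That comparison's 3 lowest blocks of the domain, 0.852, 0.88 and 0.895, all joined this strip to the stretch.

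In Dup-S the gain was largest for contacts of the duplicated 420 kb with itself, and contacts between its 2 flanks were fewer than in WT. The whole domain held 1.22 times the WT contacts (1.21 to 1.22; KR 1.01). The segment with itself was at 1.92 (1.91 to 1.93; KR 1.07), the segment with the 310 kb on its centromeric side at 1.38 (KR 1.03) and with the 860 kb on its telomeric side at 1.32 (KR 0.998). Raw counts of a duplicated segment contain its copy number, and contacts between copies are placed on 1 copy of the assembly. The flanks with themselves were at 1.02 and 0.992, and contacts of one flank with the other, across the duplication, at 0.92 (0.912 to 0.927; KR 0.929).

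Within the duplicated segment the gain grew with distance. Pairs of the segment under 300 kb apart had a fold of 1.87 and those 300 kb or more apart one of 3.31, or 1.80 with KR values. The 3 highest blocks were 111740001 to 111840000 with 112040001 to 112140000 (2.59, KR 1.44), 111840001 to 111940000 with the same (2.31) and 111740001 to 111840000 with 112140001 to 112240000 (2.22). The pair of the first and the last bin of the segment, 111750001 and 112160001, was past the focal ratio in Dup-S and not in WT. These ends were themselves taken from the gain in the Dup-S map. Contacts between copies are placed on 1 copy of the assembly, and their part in the value of this pair was not tested. Its square held 2715 contacts in Dup-S and 758 in WT, and the ratio was 2.56 (2.47 to 2.66) in Dup-S and 1.02 in WT (KR 2.79 and 1.01).

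Of the 136 blocks of the domain in Dup-S, 53 were at least 25% higher than WT, against 16.0% of all 1711 blocks, and 0 were at 0.8 or lower, against 0.175%. With KR values the blocks of the domain ranged from 0.888 to 1.45, with a median of 1.01. The 3 lowest blocks, 0.882 to 0.888, all joined the centromeric flank to a block of the telomeric side that lay 800 or 1000 kb away.

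In Dup-L, contacts rose most between parts of the duplicated desert. The whole domain was at 1.52 (KR 0.949), the duplicated 1080 kb with itself at 1.86 (1.86 to 1.87; KR 0.952), and the duplicated part with the stretch past the desert at 1.24 (KR 0.897). With the 130 kb of desert that remained single, the duplicated part was at 1.10 (KR 0.847), and under 300 kb apart at 1.01. The raw folds of the unduplicated pieces were near 1, with 0.98 for the rest of the desert with itself (KR 1.12), 1.04 for it with the stretch (KR 1.11), and 1.00 (0.997 to 1.01; KR 1.02) within the stretch.

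Dup-C had the same telomeric end and a similar order. The whole domain was at 1.65 (KR 0.947), the duplicated part with itself at 2.09 (2.08 to 2.10; KR 0.958), with the rest of the desert at 1.08 (KR 0.803) and with the stretch at 1.22 (KR 0.831). The rest of the desert was at 1.07 with itself (KR 1.24) and at 1.01 with the stretch (KR 1.11). Within the stretch the fold was 1.07 in raw and 1.08 in KR values. The raw fold of the duplicated part with single parts was thus 1.08 to 1.24 in Dup-L and Dup-C, against 1.86 and 2.09 with itself. With scaling to library totals the folds with single parts were below 1, at 0.856 with the rest of the desert and 0.966 with the stretch in Dup-L, and at 0.766 and 0.86 in Dup-C. WT is the control of both, so the 2 sets of folds are not independent.

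Of the 136 blocks, 81 were at least 25% higher in Dup-L and 76 in Dup-C, against 38.6% of the map's blocks in each. None was at 0.8 or lower, against 14.6% and 19.0%. With KR values the blocks of the domain ranged from 0.785 to 1.17 in Dup-L and from 0.762 to 1.23 in Dup-C. The highest raw block in both joined 111440001 to 111540000 with 112240001 to 112340000, at 2.21 (KR 1.07) in Dup-L and 2.5 (KR 1.06) in Dup-C. The lowest raw blocks in Dup-L, 0.979 to 0.986, all lay on the telomeric side of the duplication.

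The duplicated desert held more raw contacts with itself in Dup-LdeltaBor than in Dup-L, but not with KR values. Over Dup-L the whole domain was at 1.3 (KR 0.967), the duplicated part with itself at 1.44 (1.43 to 1.44; KR 0.97), with the rest of the desert at 1.04 (KR 0.893) and with the stretch at 1.10 (KR 0.919). The stretch with itself was at 0.981 (KR 1.02). The bins of the gained segment also held more contacts relative to WT in this library than in Dup-L (a median bin ratio of 2.43 against 1.76), and their part in the result was not tested. Of the 136 blocks, 66 were at least 25% higher, against 18.7% of the map, and 0 were at 0.8 or lower, against 11.7%. With KR values the blocks of the domain ranged from 0.708 to 1.10.

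Fold by distance differed between the genotypes. In deltaBor it was 1.09 at 20 to 90 kb, 1.01 to 1.02 from 100 to 1190 kb and 0.952 at 1200 to 1580 kb. In Dup-S it was highest at 200 to 390 kb (1.3, KR 1.05) and lowest at 1200 to 1580 kb (0.956, KR 0.93). In Dup-L it was highest at 400 to 790 kb (1.63) and in Dup-C at 20 to 90 kb (1.72), and both were lowest at 1200 to 1580 kb, with 1.28 and 1.29. With KR values every distance was below 1 in both, from 0.907 to 0.983 in Dup-L and from 0.867 to 0.996 in Dup-C. In Dup-LdeltaBor over Dup-L it was 1.28 to 1.36 up to 790 kb, 1.21 at 800 to 1190 kb and 0.951 (0.939 to 0.963; KR 0.798) at 1200 to 1580 kb. Pairs at the longest distances join the boundary end of the desert to its other end or to the stretch past it.

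The raw pattern of contacts over expected was alike in WT and deltaBor, and alike among the 3 libraries whose duplications end at 112520000. Over 11175 pairs, the correlation of the observed over expected values was 0.90 between WT and deltaBor, 0.93 between Dup-L and Dup-C, 0.93 between Dup-L and Dup-LdeltaBor, and 0.92 between Dup-C and Dup-LdeltaBor. It was lowest, at 0.54, between deltaBor and Dup-LdeltaBor, which both lack the boundary. With KR values these were 0.79, 0.82, 0.85, 0.81 and 0.69. The grouping was less clear there, with 0.80 between WT and Dup-L. The lowest KR value was 0.62, between Dup-S and Dup-LdeltaBor. Pairs share bins, bin coverage and, in the duplications, copy number, so these values describe the maps and carry no test.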

How the data were processed

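The aligner was Bowtie2 2.2.6 and the assembly mm9, per the submitters' processing notes. File names give 10 kb bins and a mapping quality of 30. How read pairs were filtered, duplicates handled and maps balanced is not stated. The authors deposited raw contact counts per pair of bins and a KR-balanced signal for each library, and other maps of differences between scaled libraries. Positions of the Dup-C and Dup-S raw maps are offsets from the start of the map, and this placement was checked (correlation of bin sums with WT at shift 0: 0.87 and 0.966, others at most 0.627). The domain, the named regions and the lists were chosen with earlier results of these data known. Named were the WT minima, the 8 highest WT focal contacts, up to 3 contacts per other genotype not in WT, and 3 highest and 3 lowest blocks per comparison. Altered segments came from circular binary segmentation of bin sums (pseudocount 0.5). KR folds were scaled on the same pairs as raw folds. Blocks needed 50 contacts in both libraries. Procedures were tested on simulated maps. Computations used Python 3.11.15, numpy 2.4.6, scipy 1.17.1 and matplotlib 3.10.9. Added after seeing the data were the anchor pairs, the 300 kb diamond, the first 7 bins and the search in the Kcnj-side domain.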

Additional observations from a re-analysis of the deposited data

How the results depend on the processing

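No paired analysis was possible because each genotype had 1 library, and for the same reason no library could be left out. The whole-domain folds of deltaBor, Dup-S, Dup-L and Dup-C over WT and of Dup-LdeltaBor over Dup-L, in that order, were 1.01, 1.01, 0.949, 0.947 and 0.967 with KR values, so those of Dup-L, Dup-C and Dup-LdeltaBor turned below 1. KR values also turned the duplicated part with itself (0.952, 0.958 and 0.97) and, in Dup-S, the segment with its telomeric side (0.998). The folds of the duplicated part with the rest of the desert (0.847, 0.803 and 0.893) and with the stretch (0.897, 0.831 and 0.919) were below 1 too. With library totals the folds were 0.992, 1.13, 1.18, 1.17 and 1.10, and in the 3 genotypes with the long duplications those of the duplicated part with single parts were below 1 (0.766 to 0.966). With pairs of the domain among the scaling contacts they were 1.03, 1.22, 1.52, 1.64 and 1.31. Without pairs under 10 bins apart they were 1.01, 1.24, 1.54, 1.61 and 1.32. Without the 2 low-coverage bins they were 1.04, 1.22, 1.52, 1.64 and 1.3. With equal weight for each distance they were 0.994, 1.15, 1.46, 1.5 and 1.19, and with domain ends moved in by 5 bins 1.05, 1.23, 1.52, 1.66 and 1.32. WT had 5 minima with the 100 kb diamond and 1 at a prominence of 0.3, against 3. The WT slope was -0.48 with KR values and -0.49 over all distances. The share of contacts joining the desert to the stretch past it was 18.8% with KR values and 27.9% without pairs under 10 bins apart. WT focal contacts numbered 8 with KR values, 3 at a ratio of 1.5, 16 with a ring of 6 to 8 bins and 16 without low-coverage bins, against 24. With KR values 3, 4, 4, 3 and 3 of the 24 passed in the 5 mutants, again in that order, against 12, 7, 11, 7 and 7. Within 1 bin of the WT position 17, 10, 14, 14 and 10 passed. For that tolerance no share of all tested pairs was computed. The cause of these differences was not tested, except that balancing equalises bin sums by construction. Dup-C had the lowest depth, with a counting error of 14.6% at its median pair.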

Other observations

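Contacts that were focal in a mutant and not in WT were, other than the corner of the Dup-S duplication, close to the threshold. In deltaBor the highest joined 112040001 to 112640001, with a ratio of 1.32 against 1.23 in WT. In Dup-S the next joined 112430001 to 112600001, at 1.36 against 1.16. In Dup-L the highest joined 111760001 to 112820001, at 1.38 against 1.12. In Dup-C it joined 112040001 to 112630001, at 1.41 against 1.24, and in Dup-LdeltaBor 111740001 to 112820001, at 1.36 against 1.14. With KR values these 5 lay between 1.07 and 1.17 in the mutant.

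The pair 112040001 with 112630001 or 112640001 joined the mid-desert limit region to the end of the desert. Its square held 2.61 times the expected contacts in WT for 112630001 (1596 contacts) and 2.38 times for 112640001 (1437 contacts), levels near that of the strongest focal contact (3.00). Its surroundings were high as well, so its WT ratio was 1.24 and 1.23.

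With raw counts, the 5 WT contacts that also passed with KR values held between 0.992 and 1.04 times the WT contacts in deltaBor. Each counting interval includes 1. With KR values the folds were 0.954 to 1.01.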
